A study of Homo sapiens with 14 samples.

Results

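Messenger RNA of the CEACAM adhesion molecules CEACAM1, CEACAM3, CEACAM5, CEACAM6 and CEACAM7 was followed in LY2 breast cancer cells after knockdown of the nuclear receptor coactivator SRC-1, the product of NCOA1. The members were all probe sets that the array annotation gives to these genes, 15 of the 54613 probe sets on each Affymetrix array, for 5 of 19775 genes. CEACAM1 had 5 of them, CEACAM3 and CEACAM7 had 3 each, and CEACAM5 and CEACAM6 had 2 each. The genes were chosen by earlier results of these arrays, the difference in signal between SRC1 siRNA and control siRNA in which CEACAM1 ranked high, so every comparison of SRC1 siRNA with control siRNA is given for the members as a description without a test. The comparisons of tamoxifen with vehicle did not enter the choice and were tested. They share arrays with the knockdown comparisons, so these tests are not fully independent of the choice. The difference between the tamoxifen effects of both siRNAs, tested too, equals the difference between both knockdown comparisons.

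LY2 is an endocrine-resistant derivative of the MCF-7 line. All cells were kept in 10 nM 4-hydroxytamoxifen, the active metabolite of tamoxifen, and then grown without it for 72 hours. They were transfected for 24 hours with 40 nM siRNA and finally received 4-hydroxytamoxifen or ethanol for 2 hours. The 4 groups were SRC1 siRNA with 100 nM tamoxifen (2 arrays, replicates 1 and 3), SRC1 siRNA untreated (4 arrays), control scrambled siRNA with 100 nM tamoxifen (4 arrays) and control scrambled siRNA untreated (4 arrays). The labels call the replicates biological and do not say whether they were separate cultures, so p-values measure the spread between these arrays. The fits did not use the replicate numbers. With the number as a block, 10 of 21 untreated and 6 of 20 treated knockdown calls of listed or neighbouring genes stayed. The model is 1 cell line with 1 siRNA product against SRC-1 and a short drug exposure.

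CEACAM proteins are cell surface glycoproteins of the immunoglobulin superfamily that bind each other between neighbouring cells. CEACAM1 spans the membrane and, in its long form, carries tyrosine-based inhibitory motifs that recruit phosphatases, whereas CEACAM5, CEACAM6 and CEACAM7 are held by a lipid (GPI) anchor and CEACAM3 is a granulocyte receptor that takes up bacteria. CEACAM5 is the carcinoembryonic antigen measured in blood as a tumour marker, and CEACAM1 is known to respond to interferons.

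Signals are the deposited log2 values, with array medians between 3.44 and 3.51, and each difference is one of group means with its standard error (SE). NCOA1, read by probe set 209106_at, had log2 signals of 10.38 and 10.01 in SRC1-siRNA tamoxifen arrays and 9.96 to 10.54 in SRC1-siRNA untreated arrays, against 11.12 to 11.53 in control-siRNA tamoxifen and 11.14 to 11.52 in control-siRNA untreated arrays. The target was thus lower on every SRC1-siRNA array. The 8 luminal epithelial markers were all above the median signal and the log2 of their summed signal was between 15.48 and 15.60 on every array. Among them CDH1, the epithelial cadherin, fell in untreated SRC1-siRNA cells (-0.27, limma adjusted p = 0.00864). The keratin KRT8 rose there (0.31, limma adjusted p = 0.0351, lost without each of 5 arrays in turn). In treated cells 0 of 8 passed, with 3 at an unadjusted p of 0.05 or less, a share not computed over all genes. With knockdown 5.97% of all genes rose and 5.98% fell in untreated cells, and 6.49% rose and 8.71% fell in treated cells. These shares are the background for all marker calls here. The 8 granulocyte markers, which matter because granulocytes carry CEACAM1, CEACAM3, CEACAM6 and CEACAM8, were all below the median signal, with log2 summed signals of 5.04 to 5.20 and 5.18 to 5.28 in SRC1-siRNA tamoxifen and untreated arrays and of 5.09 to 5.16 and 5.06 to 5.17 in control-siRNA tamoxifen and untreated arrays. Of these, FCGR3B (0.35) and MPO (-0.22) passed the limma test for knockdown in treated cells. The 5 measured markers of other leukocytes were below the median signal too, with log2 summed signals of 4.9 to 6.0 and 4.7 to 5.2 in SRC1-siRNA tamoxifen and untreated arrays and of 4.4 to 4.7 and 4.5 to 4.9 in control-siRNA tamoxifen and untreated arrays. LCP2, an adaptor of T cell receptor signalling, rose by 1.32 untreated and 1.99 treated, and ITGAM, an integrin of myeloid cells, by 0.86 treated. The untreated LCP2 call was lost without each of 10 arrays in turn, and the treated one without SRC1-siRNA tamoxifen replicate 1. The treated calls of FCGR3B, MPO and ITGAM were lost without each of 8, 6 and 3 arrays in turn. Of 6 fibroblast and endothelial markers 5 were below the median signal and the collagen gene COL1A1 averaged 10.92. Their log2 summed signals were 11.05 to 11.09 and 10.91 to 11.13 in SRC1-siRNA tamoxifen and untreated arrays and 10.79 to 11.10 and 10.69 to 10.91 in control-siRNA tamoxifen and untreated arrays. CDH5, the endothelial cadherin, on a dim probe set, fell with knockdown in treated cells (-0.36, limma adjusted p = 0.00273) and with tamoxifen in SRC1-siRNA cells (-0.36, limma adjusted p = 0.0140, and 0.137 without SRC1-siRNA tamoxifen replicate 1). All arrays read cultures labelled as the LY2 line, and whether any other cells were present was not tested. In RNA of whole cultures, more cells that express a gene and more RNA per cell cannot be told apart.

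CEACAM1 had the largest knockdown differences of the 5 genes, and 4 of its 5 probe sets showed them. Probe set 206576_s_at had log2 signals of 10.01 and 9.00 in SRC1-siRNA tamoxifen arrays (replicates 1 and 3) and 9.88, 9.07, 8.88 and 7.64 in SRC1-siRNA untreated arrays (replicates 1 to 4). In control-siRNA arrays it had 4.70, 5.25, 5.65 and 5.52 with tamoxifen and 4.15, 5.19, 5.48 and 5.44 untreated. The lowest SRC1-siRNA array was thus well above the highest control array, and within each siRNA the tamoxifen and untreated arrays overlapped. The difference between SRC1 siRNA and control siRNA was 3.80 ± 0.42 in untreated cells, a 13.9-fold higher signal, and 4.23 ± 0.52 in tamoxifen-treated cells, 18.7-fold higher.

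Probe set 209498_at gave the same separation. Its log2 signals were 9.55 and 8.59 in SRC1-siRNA tamoxifen and 9.93, 8.60, 8.58 and 8.08 in SRC1-siRNA untreated arrays, against 5.02, 6.25, 6.47 and 6.11 in control-siRNA tamoxifen and 4.85, 5.86, 6.23 and 5.54 in control-siRNA untreated arrays. The differences were 3.18 ± 0.42 in untreated and 3.11 ± 0.51 in treated cells. The remaining bright CEACAM1 probe sets, 211889_x_at and 211883_x_at, differed by 3.29 ± 0.46 and 2.93 ± 0.42 in untreated cells and by 3.82 ± 0.57 and 3.32 ± 0.51 in treated cells, with no overlap of SRC1-siRNA and control-siRNA arrays. Suffixes _s_at and _x_at mark probe sets whose probes can match several transcripts or related genes, so a share of the signal of these 3 probe sets could come from another CEACAM messenger. The 209498_at design has no such suffix. The fifth probe set, 210610_at, stayed between 2.56 and 3.03 on every array, below the median signal, and differed by 0.22 ± 0.06 in untreated and 0.09 ± 0.08 in treated cells.

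**Figure D1:**
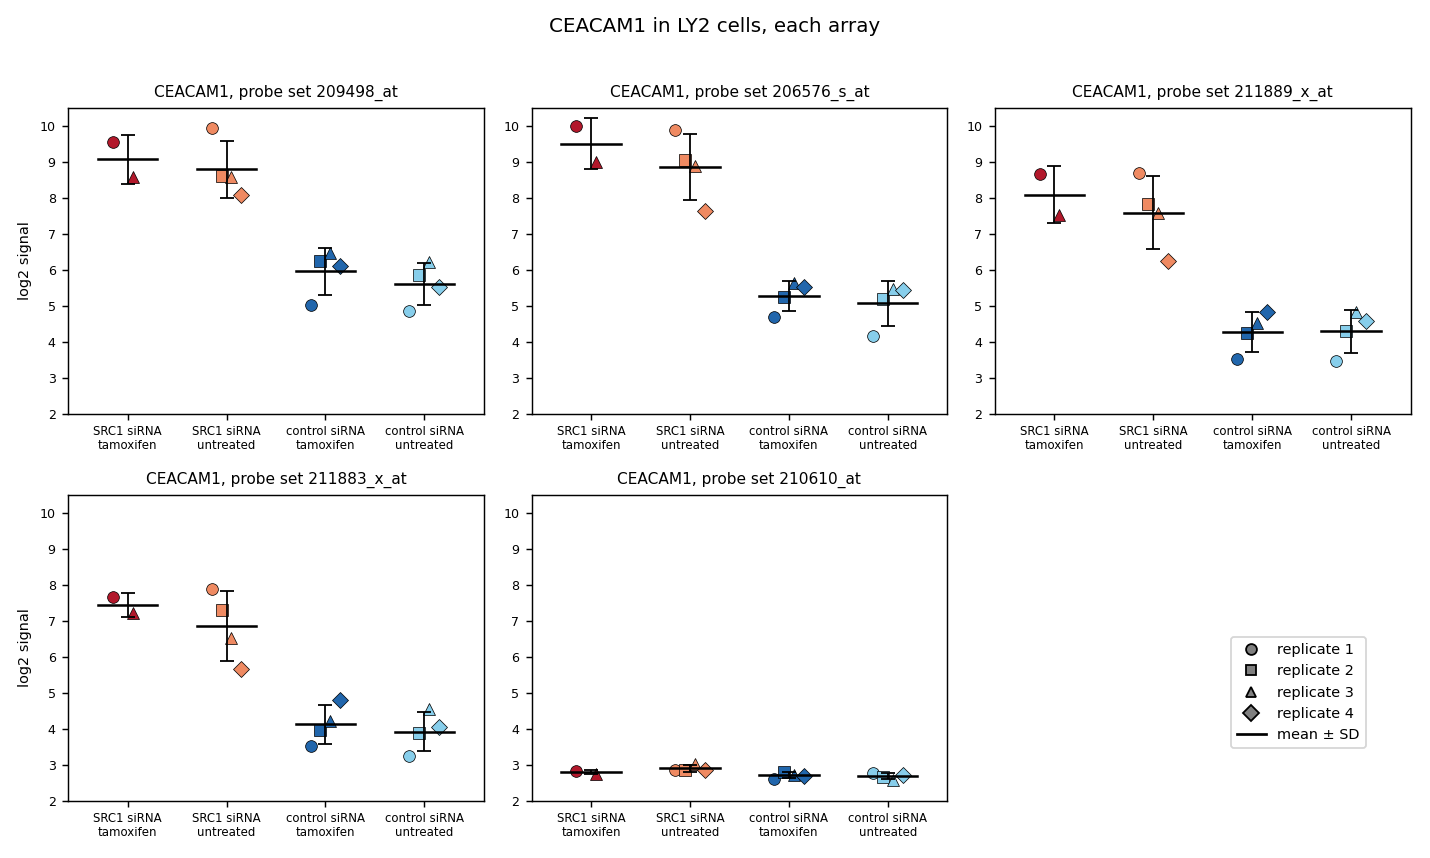
Log2 signal of the 5 CEACAM1 probe sets (1 panel each) on each of the 14 arrays by group, with marker shape for the replicate number and the mean ± SD as lines. For 206576_s_at the lowest SRC1-siRNA array was at 7.64 and the highest control-siRNA array at 5.65, whereas 210610_at stayed at or below 3.03.

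The order of group means for these 4 bright CEACAM1 probe sets put both SRC1-siRNA groups above both control-siRNA groups. Neighbouring groups of the same siRNA overlapped and the groups of different siRNA did not. The arrays of replicate 1 were the highest among SRC1-siRNA untreated arrays and the lowest in both control groups for all 4 probe sets, so the difference between untreated arrays of equal number was widest there. The labels do not say what arrays of equal number share. Over all probe sets their deviations from the group means ran against each other in all 18 pairs. Whether differences between numbers were removed before deposit is not known, so these same-number differences are descriptions. For 206576_s_at it was 5.73, 3.88, 3.40 and 2.19 for replicates 1 to 4, and for 209498_at 5.08, 2.74, 2.35 and 2.55. Leaving out all arrays of replicate 1 gave untreated differences of 3.16 for 206576_s_at and 2.54 for 209498_at, and leaving out those of replicate 4 gave 4.33 and 3.39.

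The CEACAM1 promoter is shown because 2 of the 4 motifs searched lie in it. The sequence is RefSeq's for GRCh38.p14, chr19:42528432-42528731 on the minus strand, from 250 bases before to 50 after the gene's start. Capitals mark the core of an interferon-stimulated response element, searched as GAAA, any 2 bases and GAAA, at position -116 from the start, and a GC box, CCGCCC, at -52.
CEACAM1: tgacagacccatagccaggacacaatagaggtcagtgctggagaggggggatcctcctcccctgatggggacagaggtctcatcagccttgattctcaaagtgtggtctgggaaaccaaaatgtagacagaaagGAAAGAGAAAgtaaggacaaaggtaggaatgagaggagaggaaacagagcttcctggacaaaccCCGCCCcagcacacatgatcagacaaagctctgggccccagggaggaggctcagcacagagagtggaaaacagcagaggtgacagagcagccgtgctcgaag
Of 35116 promoters of the same length, 3.57% hold that core and 45.0% the GC box on either strand. The gamma-activated site, TTCNNNGAA, held by 7.66% of promoters, and the E-box, CACGTG, held by 7.26%, have no match in this window. The E-box and TTCNNNGAA read the same on both strands, and no match overlaps another. A match describes letters and is no evidence of binding.

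Most of the measured interferon markers were higher in the same arrays. They were listed with earlier results of these arrays known, so their counts and p-values are no independent test. Among 7 measured interferon markers, 6 rose in untreated SRC1-siRNA cells and 0 fell (limma adjusted p at 0.05 or less, where 5.97% of all 19775 genes rose and 5.98% fell), and 5 rose and 0 fell in treated cells (6.49% and 8.71% of all genes). Their median differences were 1.61 and 1.19, against -0.00 and -0.03 over all genes. IFNB1, which encodes interferon beta, was 3.98 ± 0.67 higher in untreated (limma adjusted p = 0.00285) and 3.74 ± 0.82 higher in treated cells (limma adjusted p = 0.0115). The untreated calls of IFNB1, CCL5 and MX1 held under each alternative run, whereas the treated IFNB1 call ended without SRC1-siRNA tamoxifen replicate 1 (limma adjusted p = 0.132). The counts also hold less stable calls, since the untreated IRF7 call was lost without each of 7 arrays in turn and the treated OASL call without each of 9 (highest limma adjusted p = 0.10 and 0.28). The treated MX1 call ended without SRC1-siRNA tamoxifen replicate 1 (limma adjusted p = 0.0553).

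Across replicate numbers CEACAM1 and the interferon markers did not keep 1 order. The untreated difference of IFNB1 was 6.45, 2.67, 1.76 and 5.04 for replicates 1 to 4, and that of the chemokine gene CCL5 was 6.45, 4.15, 3.86 and 4.66. Both were widest in replicate 1, as CEACAM1 was. So were IRF1 (2.35, 0.64, 0.55 and 1.13) and MX1 (1.83, 1.05, 1.05 and 1.52). IFIT1, an interferon-induced RNA-binding protein that passed in neither knockdown comparison, differed by 0.50, 0.13, 0.04 and 5.77. Its untreated log2 signals were 11.99, 12.28, 12.32 and 9.76 with control siRNA and 12.49, 12.41, 12.36 and 15.53 with SRC1 siRNA. OASL, an antiviral oligoadenylate synthetase-like protein, differed by 3.40, 1.35, 1.02 and 5.44. In replicate 4, where IFIT1 and OASL differed most, the CEACAM1 probe set 206576_s_at differed least. The CEACAM1 design without a suffix, 209498_at, differed least in replicate 3 (2.35, against 2.55 in replicate 4). The part of interferon in the CEACAM1 difference was not tested.

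**Figure D2:**
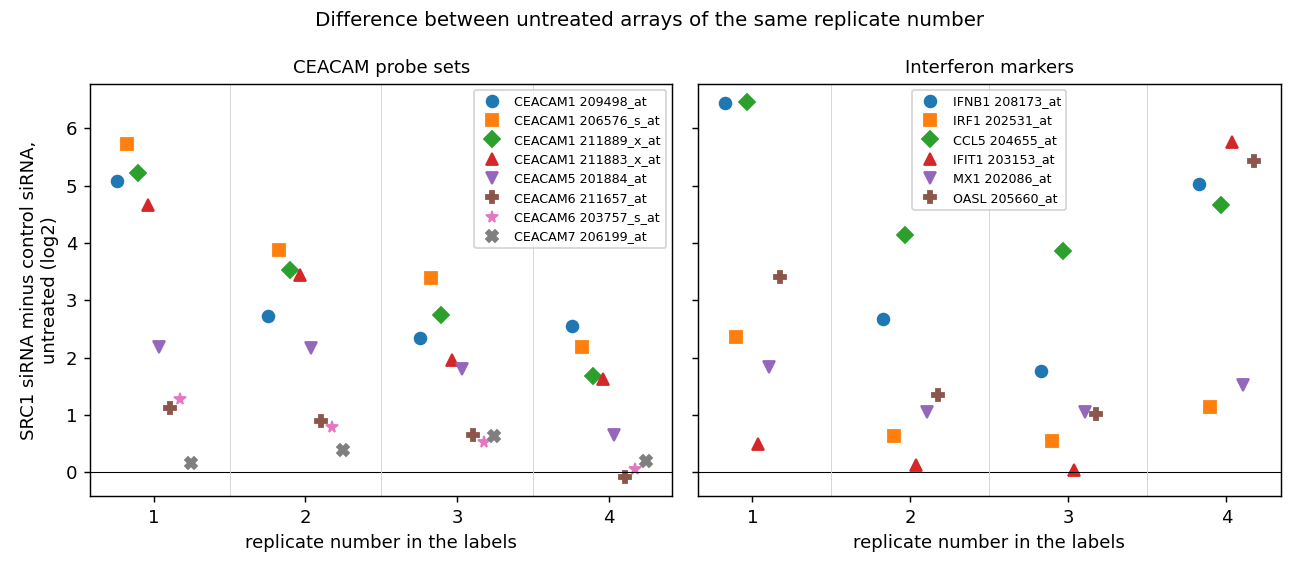
Difference in log2 signal, SRC1 siRNA minus control siRNA, between untreated arrays of equal replicate number, for 8 CEACAM probe sets (left) and 6 interferon markers (right). CEACAM1 206576_s_at lay at 5.73 in replicate 1 and at 2.19 in replicate 4, whereas IFIT1 lay at 0.50 and 5.77.

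CEACAM5, the carcinoembryonic antigen, was also higher after SRC-1 knockdown. Probe set 201884_at had log2 signals of 9.22 and 9.09 in SRC1-siRNA tamoxifen and 9.41, 9.08, 9.08 and 8.13 in SRC1-siRNA untreated arrays, against 6.71, 6.94, 6.44 and 7.49 in control-siRNA tamoxifen and 7.22, 6.91, 7.28 and 7.47 in control-siRNA untreated arrays. Every SRC1-siRNA array was above every control-siRNA array. The difference was 1.70 ± 0.25 in untreated cells (3.26-fold) and 2.26 ± 0.31 in treated cells (4.79-fold). Between untreated arrays of equal number it was 2.19, 2.17, 1.79 and 0.66, and without the arrays of replicate 4 the untreated difference was 2.05. The other CEACAM5 probe set, 217291_at, lay between 1.99 and 2.23 on all arrays, below the median signal, and differed by -0.08 ± 0.06 and 0.07 ± 0.07. A mean over both probe sets therefore gave CEACAM5 differences of 0.81 and 1.16.

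CEACAM6, a GPI-anchored relative of CEACAM5, was higher by less than 1 log2 unit. Probe set 203757_s_at had log2 signals of 6.90 and 6.39 in SRC1-siRNA tamoxifen and 6.86, 6.22, 6.31 and 6.09 in SRC1-siRNA untreated arrays, against 5.58, 5.87, 5.71 and 5.78 in control-siRNA tamoxifen and 5.58, 5.44, 5.77 and 6.04 in control-siRNA untreated arrays. The groups did not overlap, but replicate 4 came close, with 6.09 against 6.04 in untreated arrays. The difference was 0.66 ± 0.17 in untreated cells (1.58-fold) and 0.91 ± 0.21 in treated cells (1.88-fold). As its suffix shows, a share of the 203757_s_at signal could come from another CEACAM messenger, whereas 211657_at has no such suffix. Probe set 211657_at had 9.01 and 8.31 in SRC1-siRNA tamoxifen and 8.99, 8.62, 8.64 and 8.15 in SRC1-siRNA untreated arrays, against 7.77, 7.72, 7.82 and 8.06 in control-siRNA tamoxifen and 7.86, 7.72, 7.99 and 8.24 in control-siRNA untreated arrays. Here the untreated groups overlapped through replicate 4, and the difference was 0.65 ± 0.18 untreated and 0.82 ± 0.22 treated. The treated difference of 211657_at was 0.44 without the arrays of replicate 1 and 1.16 without those of replicate 3. Both CEACAM6 probe sets were highest in replicate 1 and lowest in replicate 4 among SRC1-siRNA untreated arrays, as were the bright CEACAM1 and CEACAM5 probe sets. The same held for CEACAM7 206199_at and for the dim probe sets CEACAM7 211848_s_at and CEACAM3 208052_x_at, so this order was not particular to bright members.

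**Figure D3:**
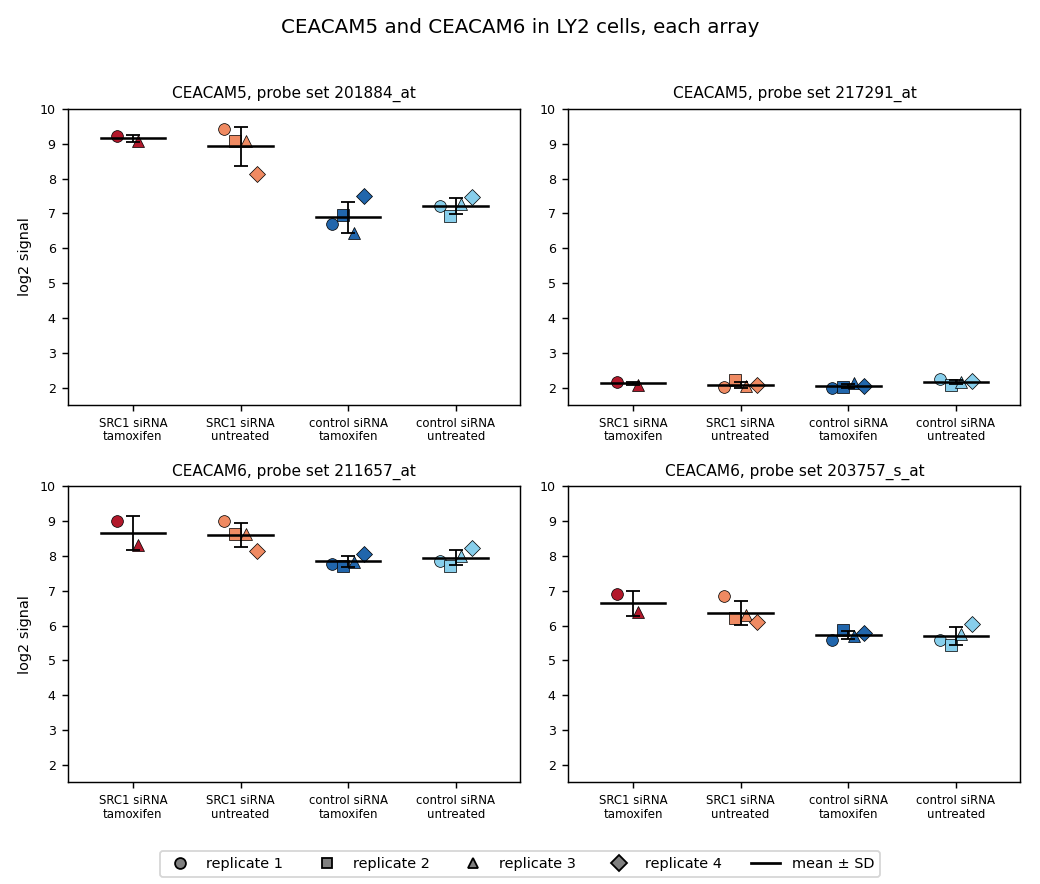
Log2 signal of the 2 CEACAM5 and 2 CEACAM6 probe sets on each array by group, with marker shape for the replicate number and the mean ± SD as lines. For CEACAM5 201884_at SRC1-siRNA arrays began at 8.13 and control-siRNA arrays ended at 7.49, and for CEACAM6 211657_at untreated groups overlapped between 8.15 and 8.24.

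The promoters of CEACAM5 and CEACAM6 are shown together because both hold an E-box, CACGTG, the letters bound by USF factors, at nearly the same distance from the start. They are RefSeq's for GRCh38.p14, chr19:41708376-41708675 and chr19:41755280-41755579, both on the plus strand. Capitals mark the E-box at -46 in CEACAM5 and at -45 in CEACAM6, and in CEACAM6 also a GC box in reverse, GGGCGG, at -211.
CEACAM5: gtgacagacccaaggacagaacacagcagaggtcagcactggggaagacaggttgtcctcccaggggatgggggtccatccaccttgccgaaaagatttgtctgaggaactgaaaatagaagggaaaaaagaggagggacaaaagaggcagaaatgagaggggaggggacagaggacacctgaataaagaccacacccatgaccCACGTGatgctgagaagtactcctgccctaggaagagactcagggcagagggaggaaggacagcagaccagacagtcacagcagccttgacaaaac
CEACAM6: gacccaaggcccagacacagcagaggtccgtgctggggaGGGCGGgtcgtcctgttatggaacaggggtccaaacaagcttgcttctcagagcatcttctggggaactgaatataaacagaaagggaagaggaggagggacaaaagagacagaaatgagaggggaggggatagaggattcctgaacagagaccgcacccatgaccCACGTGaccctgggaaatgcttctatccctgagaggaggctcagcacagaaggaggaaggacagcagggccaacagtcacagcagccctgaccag
These windows were identical at 75.9% of aligned positions. CEACAM7, at chr19:41688221-41688520 on the minus strand, was identical to CEACAM5 at 81.4% and to CEACAM6 at 81.2%, but held none of the 4 motifs, and CEACAM3, at chr19:41796337-41796636 on the plus strand, held none either. The pair with the lowest identity was CEACAM1 and CEACAM3, at 63.4%.

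CEACAM7, a GPI-anchored member known from colon epithelium, gave 1 probe set above the median signal. Probe set 206199_at had log2 signals of 4.81 and 4.45 in SRC1-siRNA tamoxifen and 4.43, 4.34, 4.28 and 4.09 in SRC1-siRNA untreated arrays, against 3.49, 3.02, 3.63 and 3.74 in control-siRNA tamoxifen and 4.26, 3.95, 3.64 and 3.89 in control-siRNA untreated arrays. Treated groups were apart and untreated groups overlapped. The difference was 0.35 ± 0.16 in untreated cells (1.27-fold) and 1.16 ± 0.19 in treated cells (2.23-fold). Both dim CEACAM7 probe sets, 211848_s_at and 206198_s_at, stayed below the median signal at 1.90 to 2.35 and 1.38 to 1.81, with knockdown differences of 0.05 ± 0.06 and 0.15 ± 0.08 untreated and -0.30 ± 0.08 and -0.02 ± 0.09 treated.

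CEACAM3, the granulocyte receptor, was dim throughout. Its probe sets 208052_x_at, 210789_x_at and 217209_at lay between 1.76 and 2.71 on all 14 arrays, below the median signal. The knockdown differences were 0.09 ± 0.06, 0.04 ± 0.06 and 0.14 ± 0.04 in untreated cells and -0.18 ± 0.08, -0.17 ± 0.07 and -0.06 ± 0.05 in treated cells. At this signal, differences are compressed and an expressed messenger cannot be told from background. The _x_at probe sets of CEACAM3 thus did not show the difference seen with those of CEACAM1.

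**Figure D4:**
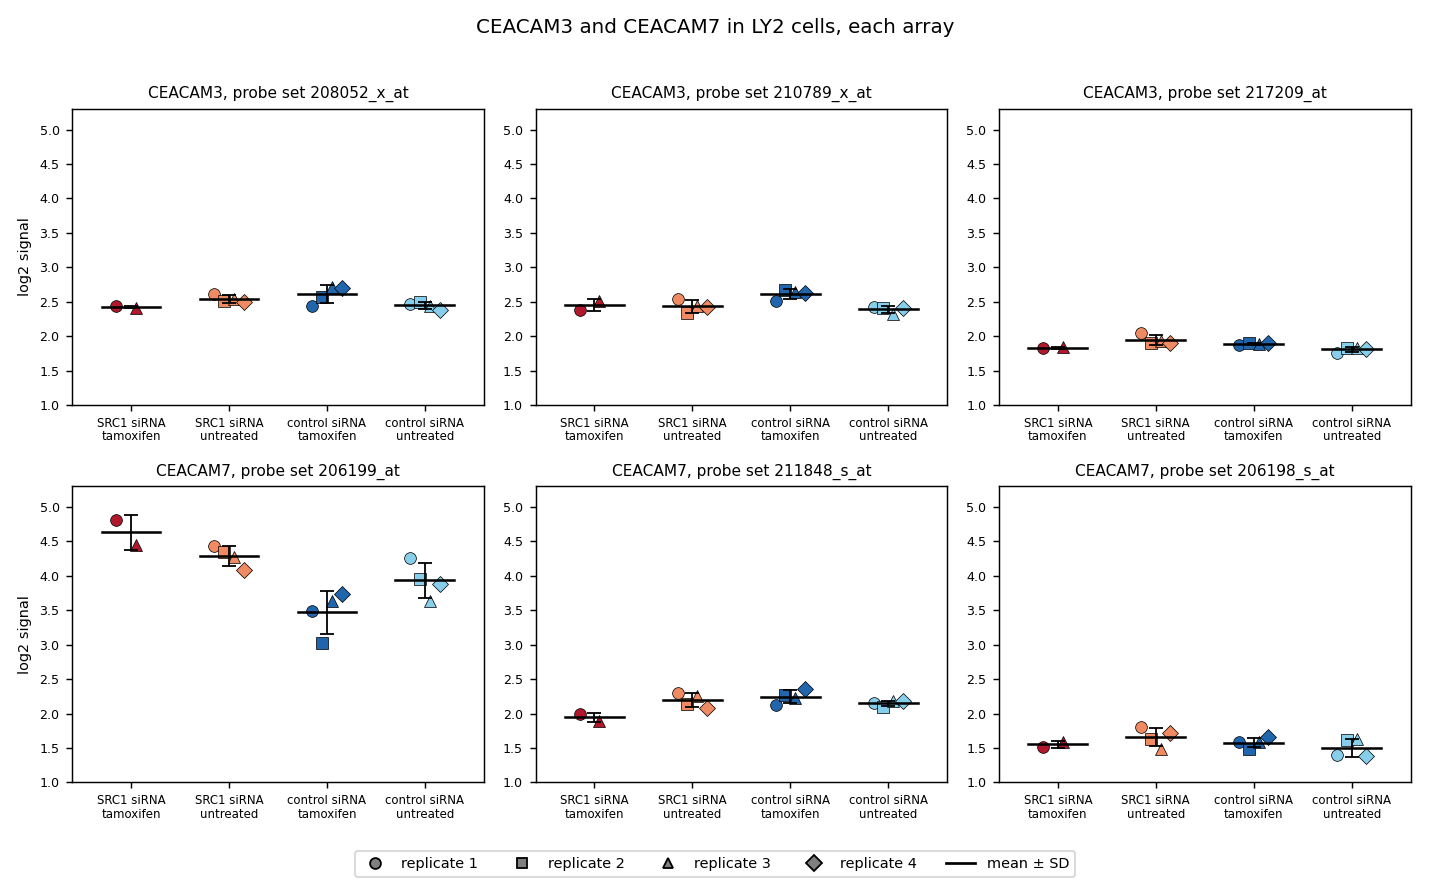
Log2 signal of the 3 CEACAM3 and 3 CEACAM7 probe sets on each array by group, with marker shape for the replicate number and the mean ± SD as lines. CEACAM7 206199_at had 4.45 and 4.81 in SRC1-siRNA tamoxifen arrays against 3.02 to 3.74 in control-siRNA tamoxifen arrays, and the CEACAM3 probe sets stayed at or below 2.71.

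Counted over the 15 probe sets, 9 were higher with no overlap in SRC1-siRNA untreated cells and 0 were lower, where 7.92% of all probe sets were higher and 8.31% lower in this way. Of these 9, CEACAM1 210610_at and CEACAM3 208052_x_at and 217209_at lay below the median signal and differed by 0.22, 0.09 and 0.14. In tamoxifen-treated cells, with 2 arrays against 4, 8 were higher and 3 lower, where 14.9% and 21.1% of all probe sets were. All 3 lower ones, CEACAM3 208052_x_at and 217209_at and CEACAM7 211848_s_at, lay below the median signal too. The median difference of the members was 0.35 untreated and 0.82 treated, against -0.00 and -0.02 over all probe sets. A difference of 1 or more was seen for 5 members untreated (4 of CEACAM1 and 1 of CEACAM5) and for 6 treated, with CEACAM7 206199_at added, where 0.769% and 0.928% of all probe sets reached it. The members were chosen with these differences known, so the counts are no test of the family.

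Tamoxifen asked a separate question, whether 2 hours of the drug moved CEACAM signals in cells with lowered or with control levels of SRC-1. None of the 15 probe sets passed the limma test (adjusted p over all 54613 probe sets) in control-siRNA cells, where 0.163% of all probe sets passed, or in SRC1-siRNA cells, where 1.51% passed. The difference between both tamoxifen effects passed for 0 of 15 as well, against 0.280% of all. At an unadjusted p of 0.05 or less, 3, 1 and 5 members were counted, against 15.7%, 16.8% and 17.3% of all probe sets.

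CEACAM1 206576_s_at differed between tamoxifen and untreated arrays by 0.64 ± 0.52 in SRC1-siRNA cells (limma adjusted p = 0.583) and by 0.21 ± 0.42 in control-siRNA cells (limma adjusted p = 0.850). The SRC1-siRNA tamoxifen group lacks replicates 2 and 4. Between arrays of equal number the SRC1-siRNA differences were 0.13 and 0.12 for replicates 1 and 3, smaller than the difference of group means. CEACAM5 201884_at differed by 0.23 ± 0.31 in SRC1-siRNA cells (limma adjusted p = 0.762) and -0.32 ± 0.25 in control-siRNA cells (limma adjusted p = 0.568). The CEACAM6 probe sets 211657_at and 203757_s_at differed by 0.06 ± 0.22 and 0.28 ± 0.21 in SRC1-siRNA cells and by -0.11 ± 0.18 and 0.03 ± 0.17 in control-siRNA cells.

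CEACAM7 206199_at had the widest contrast between siRNAs. Its tamoxifen difference was 0.34 ± 0.19 in SRC1-siRNA cells (limma adjusted p = 0.393) and -0.46 ± 0.16 in control-siRNA cells (limma adjusted p = 0.185), and the difference between them was 0.81 ± 0.25 (limma adjusted p = 0.140). In control-siRNA cells the same-number differences were -0.78, -0.92, -0.01 and -0.15, so replicates 1 and 2 carried most of it. The lowest adjusted p values of the members belonged to dim probe sets, CEACAM3 210789_x_at in control-siRNA cells (0.22 ± 0.06, limma adjusted p = 0.106) and CEACAM7 211848_s_at in SRC1-siRNA cells (-0.25 ± 0.08, limma adjusted p = 0.111) and in the difference between siRNAs (-0.35 ± 0.10, limma adjusted p = 0.115). A p above the threshold does not show that tamoxifen left these genes alone. No gene of the family, partner, promoter factor, splicing, anchor or adhesion lists described next passed for tamoxifen either. With limma, 0 to 5 genes of each list had an unadjusted p of 0.05 or less in either siRNA.

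**Figure D5:**
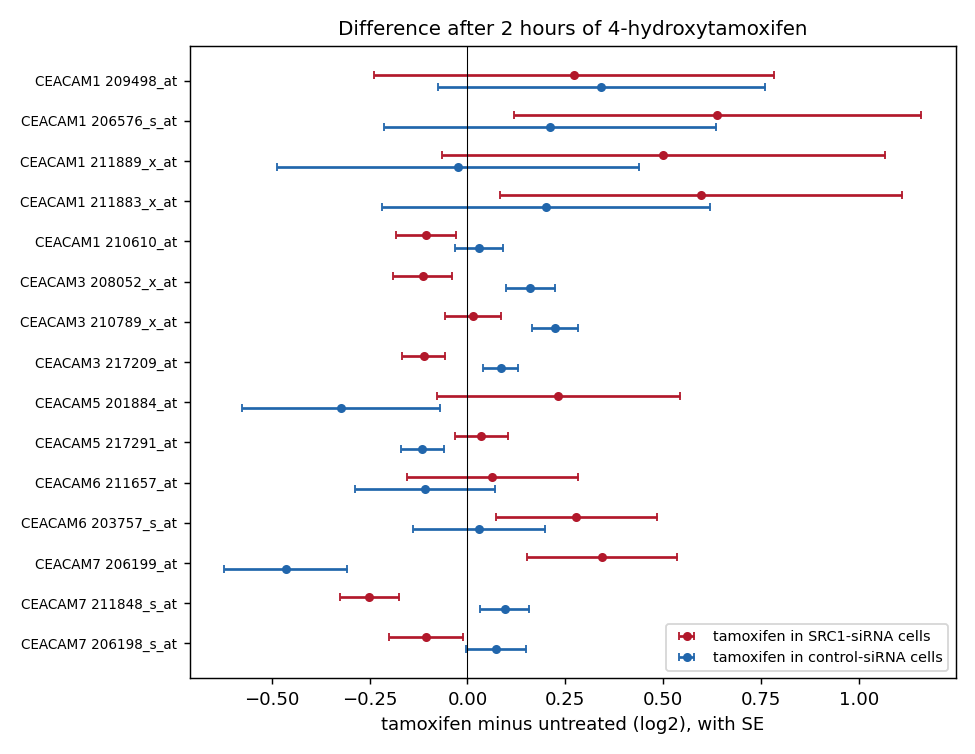
Difference in log2 signal, tamoxifen minus untreated, with its SE for the 15 CEACAM probe sets in SRC1-siRNA (red) and control-siRNA cells (blue). CEACAM7 206199_at lay at 0.34 in SRC1-siRNA and -0.46 in control-siRNA cells, and 0 of 15 probe sets passed in either.

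The rest of the CEACAM and pregnancy-specific glycoprotein (PSG) family was mostly dim. Of 17 listed genes 13 were measured, 12 of them below the median signal. In untreated cells 2 rose and 0 fell, PSG9 (0.52 ± 0.15, limma adjusted p = 0.0416) and PSG7 (0.20 ± 0.05, limma adjusted p = 0.0316), where 5.97% of all genes rose, and in treated cells 0 passed in either direction, with 1 of 13 at an unadjusted p of 0.05 or less. CEACAM8, a granulocyte member and the next protein-coding gene to CEACAM1 on chromosome 19, differed by 0.11 untreated and -0.04 treated. The PSG7 and PSG9 calls did not hold without SRC1-siRNA untreated replicate 1 or replicate 2, nor without several other arrays (highest limma adjusted p = 0.0851 and 0.116).

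The chromosomal neighbours of the members were picked after values had been seen. Of 20 protein-coding genes nearest to the CEACAM7 to CEACAM3 block and to CEACAM1, 18 were measured. In untreated cells 1 rose and 1 fell, where 5.97% and 5.98% of all genes did. In treated cells 1 rose and 0 fell, where 6.49% and 8.71% of all genes did. CXCL17, a chemokine-like gene on the other side of CEACAM1, was 1.44 ± 0.28 higher in untreated (limma adjusted p = 0.00609) and 1.80 ± 0.34 higher in treated cells (limma adjusted p = 0.00561, and 0.0860 without SRC1-siRNA tamoxifen replicate 1). CNFN, which encodes the skin protein cornifelin, was lower in untreated cells (-0.27 ± 0.06, limma adjusted p = 0.0174, and at most 0.0514 without single arrays). The neighbours' median differences were 0.04 and 0.01. CEACAM4 and CEACAM21, the genes next to CEACAM7 outside the block, differed by -0.01 and 0.04 in untreated cells.

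Of the factors reported to act at CEACAM promoters, 2 of 12 rose in untreated cells and 0 fell. Like the other gene lists, this one was drawn up with earlier results of these arrays known. Its knockdown counts and p-values are thus no independent test, and IRF1 is also one of the interferon markers above. The shares of all genes were 5.97% and 5.98% there, and 6.49% and 8.71% in treated cells. IRF1, an interferon-induced factor that binds response elements of the kind marked in the CEACAM1 promoter, was 1.17 ± 0.27 higher untreated (limma adjusted p = 0.0158) and 1.19 ± 0.33 higher treated (limma adjusted p = 0.0322), where it was the 1 factor to pass. USF1, an E-box factor, was 0.23 ± 0.06 higher untreated (limma adjusted p = 0.0304) on a dim probe set. SP1, which binds GC boxes, differed by 0.20 ± 0.06 untreated and 0.01 ± 0.07 treated and did not pass. None of the 3 splicing regulators reported to set the cytoplasmic tail of CEACAM1, HNRNPL, HNRNPA1 and HNRNPM, passed the limma test in either comparison (0 untreated and 1 treated at an unadjusted p of 0.05 or less). The untreated IRF1 call held without each single array (highest limma adjusted p = 0.0473) but ended without all arrays of replicate 2 or all of replicate 4 (limma adjusted p = 0.0555 and 0.0564), whereas the treated call ended without either SRC1-siRNA tamoxifen array or control-siRNA tamoxifen replicate 1, and the USF1 call without each of 5 arrays in turn (highest limma adjusted p = 0.0875).

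Among partners of CEACAM signalling, 13 were measured. In untreated cells 0 rose and 1 fell, where 5.98% of all genes fell, INSR, the insulin receptor whose substrate CEACAM1 is (-0.46 ± 0.07, limma adjusted p = 0.00136). In treated cells 2 rose and 0 fell, where 6.49% of all genes rose, the adaptor SHC1 (0.23 ± 0.06, limma adjusted p = 0.0305) and the membrane-binding annexin ANXA2 (0.30 ± 0.08, limma adjusted p = 0.0316). The phosphatases recruited by CEACAM1, PTPN6 and PTPN11, differed by 0.09 ± 0.13 and -0.12 ± 0.06 untreated and by 0.49 ± 0.16 and -0.24 ± 0.08 treated, and neither passed. Of the 7 genes that make or attach GPI anchors, the anchors of CEACAM5, CEACAM6 and CEACAM7, 0 passed the limma test in either comparison, and 1 had an unadjusted p of 0.05 or less in each. The INSR call held under each alternative that was run, and the SHC1 and ANXA2 calls ended without either SRC1-siRNA tamoxifen array and without some control-siRNA arrays.

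Other adhesion molecules of the immunoglobulin superfamily moved both ways. Of 21 measured, 5 rose and 1 fell in untreated cells, and 5 rose and 2 fell in treated cells, with median differences of -0.04 and 0.10. Over all genes 5.97% rose and 5.98% fell untreated, and 6.49% rose and 8.71% fell treated. BTN3A1, a butyrophilin seen by gamma-delta T cells, was 1.73 ± 0.39 higher untreated (limma adjusted p = 0.0131) and 2.15 ± 0.47 higher treated (limma adjusted p = 0.0116). ICAM1, the ligand of leukocyte integrins, was 0.99 ± 0.15 higher untreated (limma adjusted p = 0.00150) and 1.06 ± 0.18 higher treated (limma adjusted p = 0.00336). NECTIN2 and NECTIN4, junction proteins, rose by 0.30 and 0.49 untreated and by 0.45 and 0.29 treated. PECAM1, an endothelial and leukocyte adhesion molecule, rose by 0.73 in untreated cells and JAM2, a junctional molecule, by 0.45 in treated cells. NCAM1, the neural adhesion molecule, was lower (-0.75 untreated and -0.93 treated), as was CADM1 in treated cells (-0.43). In untreated cells ICAM1, NECTIN4 and NCAM1 passed under each alternative run, while NECTIN2 lost its call without each of 6 arrays in turn and PECAM1 without each of 4. In treated cells all of these calls but NCAM1 ended without SRC1-siRNA tamoxifen replicate 1, which left 1 array in that group. Of all 20 listed or neighbouring genes that passed in treated cells, 17 lost their call without that array.

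The genes whose pattern over the 14 arrays lay closest to a member were found by the mean absolute difference of log2 signals, each centred on its control-siRNA untreated mean, among 41076 probe sets. For CEACAM1 (209498_at) they were IFIT2 (0.22), ISG20 (0.27), CCN3 (0.29), HLA-DPA1 (0.29) and HLA-DMB (0.31), where the 4 group means of CEACAM1 spanned 3.45. For CEACAM5 (201884_at), spanning 2.26, they were CD74 (0.16), SYNM (0.17), PDE4DIP (0.19), PIK3R1 (0.19) and UBE3B (0.20). For CEACAM7 (206199_at), spanning 1.16, they were MST1R (0.15), SLC7A8 (0.16), NMNAT2 (0.17), PIP (0.17) and GIGYF2 (0.18). CEACAM6 and CEACAM3 spanned 0.82 and 0.18, under the 1 log2 unit set for this search. IFIT2 shows what such closeness looks like, with log2 signals of 8.79 and 7.73 in SRC1-siRNA tamoxifen and 8.98, 7.73, 7.24 and 6.85 in SRC1-siRNA untreated arrays, against 3.56, 4.89, 5.50 and 4.66 in control-siRNA tamoxifen and 3.44, 4.52, 5.09 and 4.62 in control-siRNA untreated arrays. IFIT2 was picked for closeness over these same 14 arrays, so its likeness to CEACAM1 is no separate result. Replicate 1 was its highest SRC1-siRNA untreated array and its lowest control array, and replicate 4 its lowest SRC1-siRNA untreated array.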

How the data were processed

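RNA of 14 LY2 samples was amplified, labelled with biotin and read on Affymetrix arrays, per the labels' protocols. The deposited log2 signals, 1 per probe set and array, were used as the authors made them. That the scale is log2 was read off the span of the values. Per the submitters' processing notes R 2.9.2 was used; how background, normalization and probe summaries were handled is not given in the sources used here. Array controls (62 of 54675 probe sets) were left out, and no filter on low signals was set. The annotation gave 41091 probe sets 1 gene symbol, 1801 several and 11721 none, and none of the members carried several. With limma 3.58.1 under R 4.3.3, lmFit and eBayes gave the 4 groups a mean each and 1 shared spread. Two-sided p-values were adjusted by the Benjamini-Hochberg method over 54613 probe sets, and 0.05 was the threshold. Genes of lists are given by the probe set with 1 symbol and the highest mean, all lists are described by counts and medians, and no set test was run. Some listed genes were not analysed here. Named genes were all members, NCOA1, list genes that passed (up to 6 by size) or else those with the smallest p, and the 5 genes closest to each member that spanned 1 log2 unit. Several other list genes were named after their values were seen. Members and lists were chosen with earlier results of these data known. Alternatives left out dim probe sets, single arrays or replicate numbers, or changed normalization, centring, the replicate term, the arrays fitted or the variance prior. The code was tested on simulated data. Precision was limited by the number of arrays. All 5 promoters were matched by symbol in a RefSeq table.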

Additional observations from a re-analysis of the deposited data

Results flagged for a closer look

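Of 45 sets of 4 arrays (15 probe sets in the 3 groups of that size), 3 held 1 array far from the others. Chance flags about 1 in 20. Probe set 210610_at of CEACAM1 had 3.03 in SRC1-siRNA untreated replicate 3, with the nearest array of that group at 2.86. Probe set 217209_at of CEACAM3 had 2.05 in SRC1-siRNA untreated replicate 1, with the nearest at 1.92. Probe set 210789_x_at of CEACAM3 had 2.32 in control-siRNA untreated replicate 3, with the nearest at 2.41. All 3 probe sets were below the median signal on every array.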

How the results depend on the processing

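Over 1044 values of the members for tamoxifen under the alternatives, 0 passed, and the lowest adjusted p was 0.0727. Of 706 knockdown values, 696 moved by less than the spread between replicates, 10 by more, and 4 had the other sign, all of CEACAM7 206198_s_at in treated cells (-0.06 to 0.02). The CEACAM1 206576_s_at difference was 3.16 to 4.33 untreated and 3.53 to 4.85 treated. The mean of all probe sets gave CEACAM7 0.28 in treated cells. Same-numbered arrays deviated from their group means with correlations of -0.585 to -0.0421 over 18 pairs (median -0.334). No pair was above 0.1, so the numbers were not used as pairs, and the p-values of the Results come from fits without them. All correlations were negative, however, so they do not show that same-numbered arrays are independent. Whether differences between numbers were removed before deposit is not known. With the replicate number as a block, 1 probe set passed for tamoxifen in control-siRNA cells (89 without the block), 0 in SRC1-siRNA cells (824), 0 for the difference between them (153), 2154 for SRC-1 knockdown in untreated cells (5653) and 1224 in treated cells (7350). Leaving out dim probe sets gave 246 for tamoxifen in SRC1-siRNA cells and 23 for the difference between siRNAs. Median centring gave 35 for tamoxifen in control-siRNA cells. Fitting only the arrays compared gave 2 and 109 for tamoxifen in control-siRNA and SRC1-siRNA cells and 4025 for knockdown in treated cells. Leaving out 1 array, or all arrays of 1 number (chosen after seeing the data), gave 0 to 68 for tamoxifen in control-siRNA cells, 3 to 879 in SRC1-siRNA cells, 0 to 346 for the difference, 1953 to 5750 for knockdown in untreated and 1183 to 7215 in treated cells. The lowest counts without 1 array in SRC1-siRNA cells (3) and for knockdown in treated cells (1390) came without SRC1-siRNA tamoxifen replicate 1. Of the listed and neighbouring genes that passed for knockdown, 21 untreated and 20 treated, 10 and 6 passed with the replicate block (untreated IRF1 and IRF7 had limma adjusted p = 0.0515 and 0.109), and 12 and 3 without every single array in turn. The cause of these shifts was not tested. With 1 array left, the SRC1-siRNA tamoxifen group was assumed to vary like the others.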
